A study of Homo sapiens with 12 samples.

Results

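The 37 genes described here are target genes of p53, chosen as a list of named genes and read from a count table of 62710 human genes. The list was chosen with earlier results of these data known. All 37 were found in the table, and 36 of them passed the filter on low counts that left 20593 genes to test. The exception, TNFRSF10A, had 0 to 3 counts in each library. Each member was assigned to a single role: 10 to cell cycle or growth control, and 16 to death receptor signalling or apoptosis. A further 5 were assigned to DNA repair or nucleotide supply, 4 to metabolism and redox balance, and 2 to protein turnover or trafficking. CYFIP2, a regulator of actin assembly, was placed with the cell cycle genes.

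p53 is a transcription factor that is stabilised by DNA damage and other stress and binds a sequence element near the genes it activates. Its targets arrest the cell cycle, repair DNA, adjust metabolism or start cell death, and some, such as MDM2 and PPM1D, feed back to limit p53 itself. HEK293T is an embryonic kidney line that carries the SV40 large T antigen, a viral protein that binds p53, so that the basal level of p53 targets in these cells is set in its presence.

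The study tested whether fusions of dCasRx, a catalytically dead RNA-targeting Cas protein, with splicing factors can control single exons, and asked for their effect on gene expression and splicing as a whole. Poly(A) RNA was sequenced from 12 libraries in 6 groups of 2 replicates, which the design text calls biological. All cells were HEK293T, were given 200 ng of an effector vector together with 200 ng of a guide RNA vector, and were collected 48 hours later. The group dCasRx_NT carried dCasRx alone with a nontargeting guide and was the common control. RBM25_NT, RBM25_MAPT and RBM25_CD46 carried dCasRx-RBM25, a fusion with the splicing factor RBM25, with the nontargeting guide, a guide for activation of MAPT exon 10, or a guide for repression of CD46 exon 13. RBFOX1N_NT and RBFOX1N_MAPT carried RBFOX1N-dCasRx-C, a fusion with parts of the splicing factor RBFOX1, with the nontargeting or the MAPT guide. No group without a vector was included, and the labels do not state what share of cells took up the vectors.

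The libraries held 32487927 to 53985468 counts. Reads of the RBM25 gene made up 4.08% to 5.69% of each of the 6 dCasRx-RBM25 libraries but only 0.02% to 0.0381% elsewhere, whereas the RBFOX1 gene had 0 to 6 counts throughout and checks no label. The 7 HEK293-like markers summed to 1074 to 1349 CPM (counts scaled by TMM to a common library size), hepatocyte and endothelial markers to at most 0.537 and 0.783 CPM, blood markers to at most 1.98 CPM and fibroblast markers to 20.5 to 34.5 CPM. On the second principal component the control library dCasRx_NT replicate 2 stood apart at 70.1, with dCasRx_NT replicate 1 at 30.3 and the other 10 libraries at -3.77 or below. Counts and fold changes against the control are therefore also given without this library.

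Per kilobase of annotated exon, the members spanned a wide range of levels in the control cells. GADD45A, a growth arrest and repair gene, was the highest at 70.5 CPM per kb (mean of dCasRx_NT), followed by the cyclin gene CCNG1 at 68.3 and the cell cycle inhibitor CDKN1A at 52.5. The lysosomal autophagy gene DRAM1 was at 1.49 CPM per kb and TNFRSF10A, a receptor for the death ligand TRAIL, at 0.00908.

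With dCasRx-RBM25, 16 of the 36 tested members were lower than in the dCasRx control and 0 were higher, both with the nontargeting guide. Over all genes, 7.62% were called in this comparison, 3.74% lower and 3.88% higher (edgeR's quasi-likelihood test, Benjamini-Hochberg adjusted p under 0.05). The median log2 fold change of the members was -0.36, against 0.01 over all genes, and 33 of the 36 fitted values were negative. With RBFOX1N-dCasRx-C, 7 members were higher than in the same control and 1 was lower, against 7.52% and 3.25% of all genes (10.8% in both directions together), and the median of the members was 0.03 against -0.01 over all genes. Both comparisons share the 2 control libraries. In bulk RNA, fewer cells that express a gene and less of its RNA per cell cannot be told apart.

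The effectors were also compared with each other over the guides that both were given, which needs no dCasRx_NT library. Here 27 members were lower with dCasRx-RBM25 and 2 were higher, with a median log2 difference of -0.40 against 0.01 over all genes. This comparison called many genes of all kinds, 36.7% of those tested, 18.7% lower and 18.0% higher. With the nontargeting guide alone, 20 members were lower and 0 higher (all genes: 9.63% and 7.03%), and with the MAPT guide alone 18 were lower and 2 higher (all genes: 12.0% and 10.6%). All 6 RBM25 libraries lay below all 4 RBFOX1N libraries for 25 members, as they did for 16.6% of all genes, and above them for CCNG1 and CMBL alone, as for 14.5% of all genes.

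Leaving out dCasRx_NT replicate 2 left 12 members lower with dCasRx-RBM25, and 5 higher and 1 lower with RBFOX1N-dCasRx-C. Of all genes, 1.63% were then lower with dCasRx-RBM25, and 3.15% higher and 0.812% lower with RBFOX1N-dCasRx-C, and the median of the members was -0.34 and 0.04. By role, the members lower with dCasRx-RBM25 became 5 of the 10 cell cycle genes, 1 of the 4 metabolic genes, 4 of the 15 apoptosis genes and 2 of the 5 repair genes, and the cell cycle genes higher with RBFOX1N-dCasRx-C became 2 of 10. Fitted without that library, the log2 value with dCasRx-RBM25 was -0.86 for CDKN1A, -0.87 for BTG2, -1.98 for TP53I3, -0.93 for FAS, -1.18 for EDA2R, -1.20 for SPATA18, -1.09 for PLK3, -0.56 for PLK2, -0.52 for SESN1, -0.71 for AEN, -0.66 for ASCC3 and -0.49 for POLH, each still called. With RBFOX1N-dCasRx-C it was 1.03 for CDKN1A, 1.04 for BTG2, 0.61 for TP53I3, 0.59 for SUSD6, 0.52 for TNFRSF10D and -0.77 for FDXR, each still called. The direct comparison of the effectors gave 27 lower and 2 higher without that library, the counts it gave with it.

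**Figure D1:**
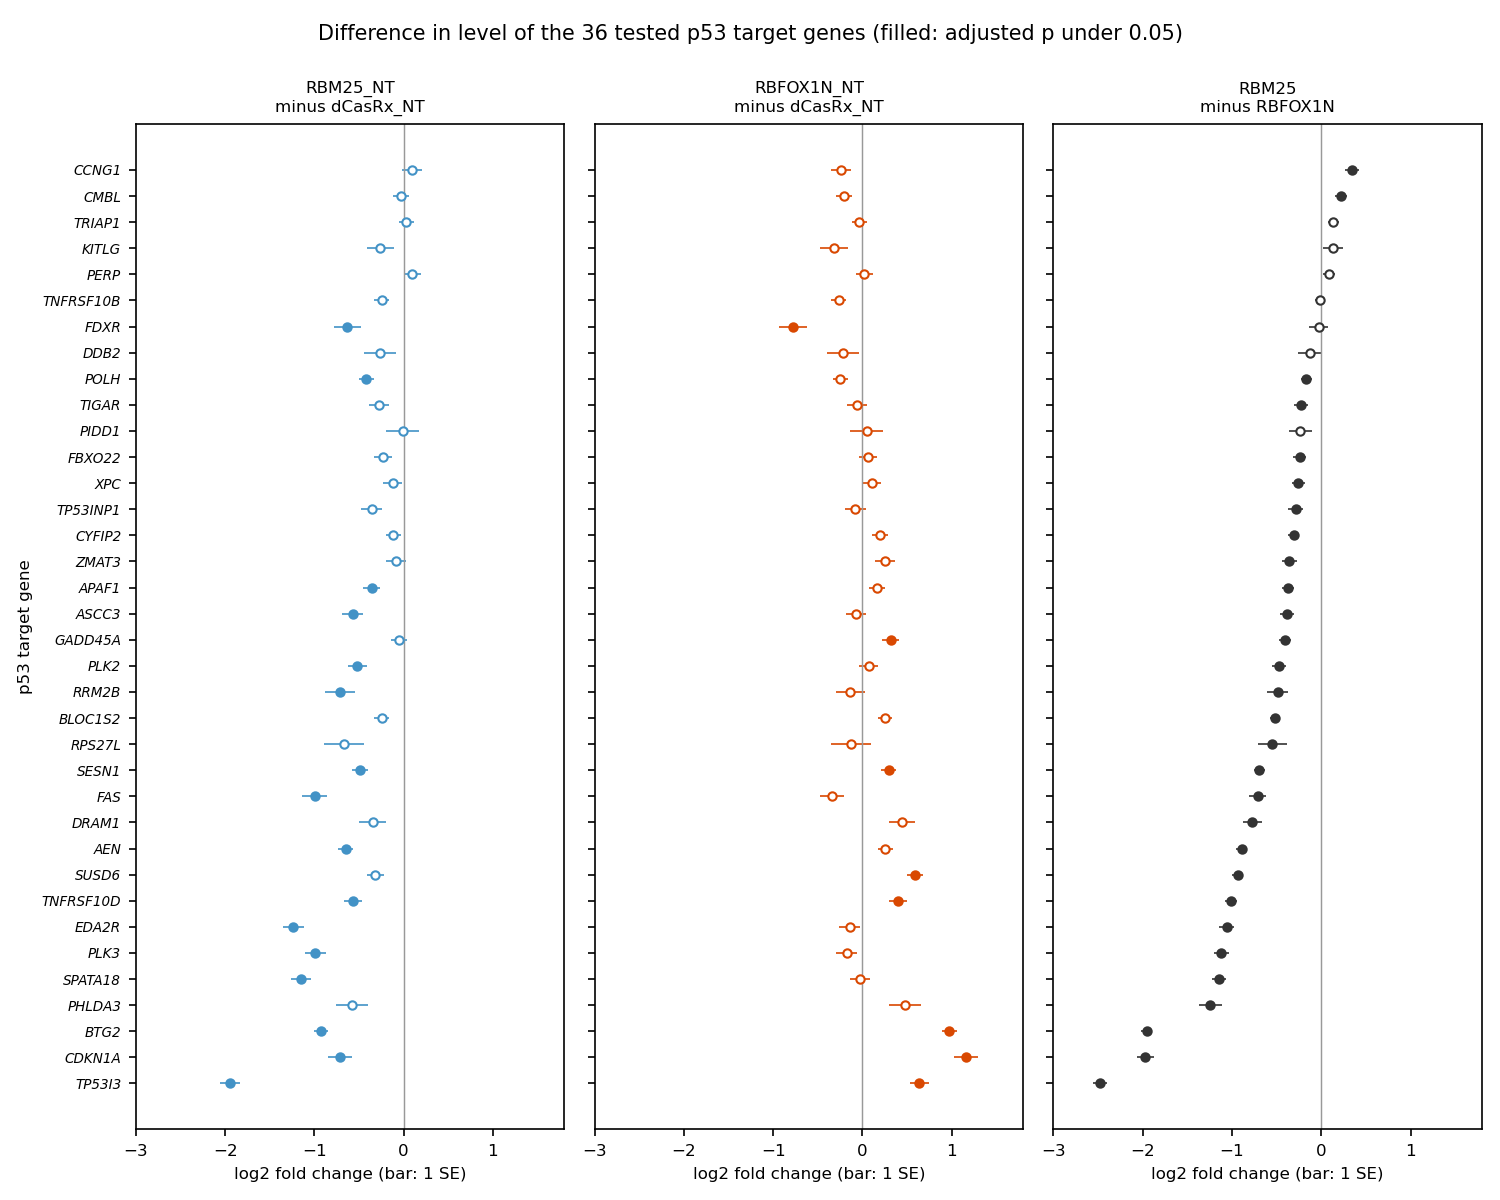
Fitted log2 fold change of the 36 tested p53 target genes (rows) in the 3 comparisons of effectors (panels), with bars of 1 standard error and filled points for an edgeR adjusted p under 0.05. The left panel holds 16 filled points, all below 0; the middle panel holds 7 above 0 and 1 below; the right panel holds 27 below 0 and 2 above.

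Among the genes of cell cycle arrest and growth control, 5 of 10 were lower with dCasRx-RBM25 against the control (3.74% of all genes). With RBFOX1N-dCasRx-C 4 of 10 were higher (7.52% of all genes). When the effectors were compared, 8 of 10 were lower and 1 higher with dCasRx-RBM25 (18.7% and 18.0% of all genes). Each role holds few genes, and differences between roles were not tested. CDKN1A codes for p21, the inhibitor of cyclin-dependent kinases through which p53 halts the cycle. It was at 175 and 145 CPM in dCasRx_NT, 107 and 87.6 in RBM25_NT, 101 and 80.4 in RBM25_MAPT, 114 and 95.6 in RBM25_CD46, 363 and 352 in RBFOX1N_NT, and 392 and 364 in RBFOX1N_MAPT. The 3 effectors did not overlap: every RBM25 library was below both controls and every RBFOX1N library above them. Against the control, CDKN1A fell by 0.72 on the log2 scale with dCasRx-RBM25 (SE 0.13, edgeR adjusted p = 0.00654). With RBFOX1N-dCasRx-C it rose by 1.16 (SE 0.13, edgeR adjusted p = 0.000147), the largest rise among the members in that comparison. Without RBM25_NT replicate 2 the adjusted p of the fall was 0.0575.

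BTG2 codes for an antiproliferative protein that promotes mRNA deadenylation. Its level was 87.2 and 95.7 CPM in dCasRx_NT, 46.7 and 49.5 in RBM25_NT, 48.2 and 47.8 in RBM25_MAPT, 53.1 and 53.7 in RBM25_CD46, 179 and 180.3 in RBFOX1N_NT, and 202 and 185 in RBFOX1N_MAPT. The 3 effectors were again fully separate, in the order seen for CDKN1A. BTG2 fell by 0.93 with dCasRx-RBM25 (SE 0.08, edgeR adjusted p = 4.75e-05) and rose by 0.97 with RBFOX1N-dCasRx-C (SE 0.08, edgeR adjusted p = 1.39e-05). Between the effectors the log2 difference, dCasRx-RBM25 minus RBFOX1N-dCasRx-C, was -1.97 for CDKN1A (SE 0.10) and -1.96 for BTG2 (SE 0.06).

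SESN1 codes for sestrin 1, which restrains mTORC1 under stress. It stood at 50.1 and 48.9 CPM in dCasRx_NT, 33.5 and 36.9 in RBM25_NT, 35.7 and 38.7 in RBM25_MAPT, 36.6 and 38.1 in RBM25_CD46, 62.8 and 58.7 in RBFOX1N_NT, and 56.9 and 56.2 in RBFOX1N_MAPT. The same order without overlap held, with smaller distances. The fall with dCasRx-RBM25 was 0.49 on the log2 scale (SE 0.09, edgeR adjusted p = 0.00465). The rise of SESN1 with RBFOX1N-dCasRx-C, 0.29 (SE 0.09, edgeR adjusted p = 0.0436), was lost in 11 of 20 alternative analyses, among them those without either control library (adjusted p = 0.069 without dCasRx_NT replicate 1 and 0.212 without replicate 2).

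The polo-like kinases PLK2 and PLK3, which act in checkpoint and stress responses, were lowest in the RBM25 libraries. PLK3 was at 22.0 and 19.6 CPM in dCasRx_NT, 10.7 and 10.2 in RBM25_NT, 9.37 and 7.80 in RBM25_MAPT, 11.5 and 10.5 in RBM25_CD46, 18.0 and 18.8 in RBFOX1N_NT, and 24.5 and 21.8 in RBFOX1N_MAPT. PLK2 was at 17.6 and 17.0 CPM in dCasRx_NT, 12.0 and 12.2 in RBM25_NT, 12.9 and 15.3 in RBM25_MAPT, 15.8 and 15.6 in RBM25_CD46, 18.9 and 17.5 in RBFOX1N_NT, and 18.6 and 17.6 in RBFOX1N_MAPT. For both genes all 6 RBM25 libraries were below the other 6, and the control and RBFOX1N libraries overlapped for both. With dCasRx-RBM25, PLK3 fell by 0.99 (SE 0.12, edgeR adjusted p = 0.000364) and PLK2 by 0.52 (SE 0.11, edgeR adjusted p = 0.0112). With RBFOX1N-dCasRx-C their log2 values against the control were -0.18 and 0.07, and neither was called.

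CCNG1, which codes for the atypical cyclin G1, was 1 of the 2 members that ran the other way between the effectors. Its level was 189 and 234 CPM in dCasRx_NT, 188 to 232 in the 6 RBM25 libraries and 158 to 183 in the 4 RBFOX1N libraries. CCNG1 was higher with dCasRx-RBM25 than in the RBFOX1N libraries by 0.35 on the log2 scale (SE 0.08, edgeR adjusted p = 0.00382) and was called against the control with neither. GADD45A was at 145 to 147 CPM in the controls, 127 to 150.1 in the RBM25 libraries and 177 to 189 in the RBFOX1N libraries; it rose with RBFOX1N-dCasRx-C by 0.32 (SE 0.09, edgeR adjusted p = 0.0448), a call lost in 9 of 20 alternative analyses, among them those without either control library. ZMAT3, which codes for an RNA-binding zinc finger protein, and CYFIP2, a regulator of actin assembly, were lower with dCasRx-RBM25 than in the RBFOX1N libraries by -0.36 and -0.31. KITLG, the ligand of the receptor KIT, was called in no comparison.

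Among the genes of metabolism and redox balance, 2 of 4 were lower with dCasRx-RBM25 than in the control (3.74% of all genes). With RBFOX1N-dCasRx-C 1 was higher and 1 lower (7.52% and 3.25% of all genes). TP53I3 codes for a quinone reductase linked to oxidative stress and had the largest difference of any member in 2 of the 3 comparisons. TP53I3 was at 21.2 and 20.7 CPM in dCasRx_NT, 5.17 and 5.73 in RBM25_NT, 6.0 and 6.25 in RBM25_MAPT, 7.08 and 6.34 in RBM25_CD46, 31.1 and 34.1 in RBFOX1N_NT, and 33.4 and 30.5 in RBFOX1N_MAPT. The 3 effectors were separate, and the RBM25 libraries lay far below the rest. It fell by 1.94 with dCasRx-RBM25 (SE 0.11, edgeR adjusted p = 1.06e-06), rose by 0.64 with RBFOX1N-dCasRx-C (SE 0.10, edgeR adjusted p = 0.00173), and differed by -2.48 between them (SE 0.08, edgeR adjusted p = 2.38e-10). Each of these calls held in all 20 alternative analyses.

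FDXR, the mitochondrial ferredoxin reductase, was low with both fusions. Its level was 101 and 103.2 CPM in dCasRx_NT, 75.1 and 57.3 in RBM25_NT, 61.6 and 42.7 in RBM25_MAPT, 66.6 and 55.8 in RBM25_CD46, 61.2 and 58.0 in RBFOX1N_NT, and 57.7 and 63.2 in RBFOX1N_MAPT. All 10 fusion libraries were below both controls, and the fusions overlapped with each other. FDXR was the only member called lower with RBFOX1N-dCasRx-C, by 0.78 (SE 0.16, edgeR adjusted p = 0.00731), although 17 of the 36 fitted values were negative. It fell by 0.63 with dCasRx-RBM25 (SE 0.16, edgeR adjusted p = 0.0276). The dCasRx-RBM25 call was lost without either control library or without RBM25_NT replicate 2 (highest adjusted p = 0.165), the RBFOX1N call without RBFOX1N_NT replicate 2 (adjusted p = 0.0875). The difference between the fusions was -0.03 (SE 0.11, edgeR adjusted p = 0.856).

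CMBL, a hydrolase, was the other member higher in the RBM25 than in the RBFOX1N libraries, by 0.22 (SE 0.06, edgeR adjusted p = 0.0158), at 32.5 to 38.0 CPM in the RBM25 libraries against 28.8 to 31.8 in the RBFOX1N libraries. TIGAR, which lowers glycolytic flux, was lower with dCasRx-RBM25 by -0.23 in that comparison (edgeR adjusted p = 0.0366). This call was kept in 11 of 20 alternative analyses, and TIGAR was called against the control with neither fusion.

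**Figure D2:**
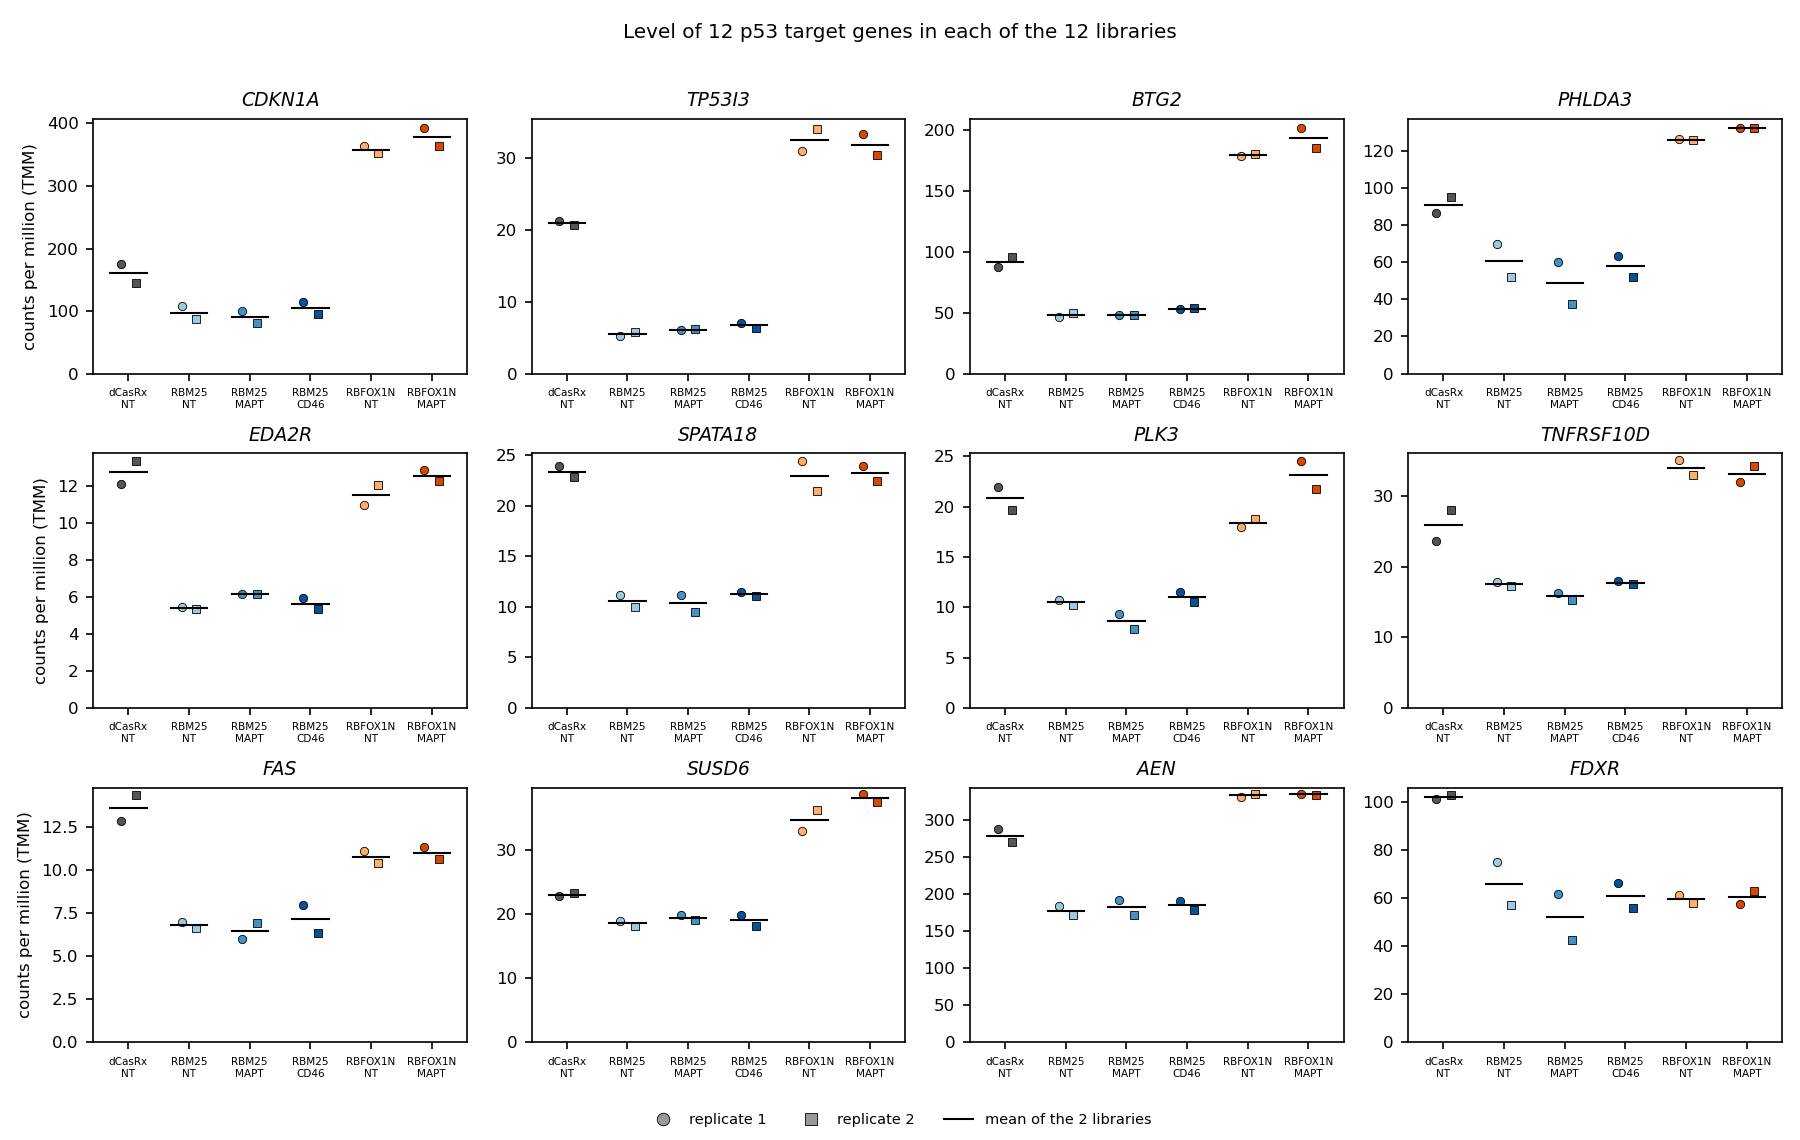
Level of 12 p53 target genes in CPM (vertical axes, from 0) in each library, by group (horizontal axes); circles are replicate 1, squares replicate 2 and lines the mean of the 2 libraries. CDKN1A, TP53I3, BTG2, TNFRSF10D, SUSD6, AEN and PHLDA3 step up from the RBM25 libraries to the controls and again to the RBFOX1N libraries, whereas for EDA2R, SPATA18 and PLK3 only the RBM25 libraries stand apart and for FDXR only the controls.

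The 16 genes of death receptor signalling and apoptosis included 15 that could be tested. Of these, 6 were lower with dCasRx-RBM25 against the control (3.74% of all genes), and 2 were higher with RBFOX1N-dCasRx-C (7.52% of all genes). When the fusions were compared, 11 were lower with dCasRx-RBM25 (18.7% of all genes). FAS codes for the death receptor that binds FAS ligand. Its level was 12.8 and 14.4 CPM in dCasRx_NT, 7.01 and 6.65 in RBM25_NT, 6.0 and 6.91 in RBM25_MAPT, 8.01 and 6.38 in RBM25_CD46, 11.1 and 10.4 in RBFOX1N_NT, and 11.4 and 10.6 in RBFOX1N_MAPT. The effectors did not overlap, but here the control was the highest and the RBFOX1N libraries lay between. FAS fell by 1.00 with dCasRx-RBM25 (SE 0.14, edgeR adjusted p = 0.000971), while its log2 value with RBFOX1N-dCasRx-C was -0.34 (SE 0.13, edgeR adjusted p = 0.12). Exons of FAS overlap those of the actin gene ACTA2 on the opposite strand, which was at 23.1 and 22.9 CPM in dCasRx_NT and 5.58 and 4.75 in RBM25_NT and fell by 2.16 on the log2 scale; reads of the 2 genes cannot be told apart where the counting ignores strand.

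TNFRSF10D codes for a decoy receptor that binds TRAIL without passing on the death signal. It was at 23.7 and 28.1 CPM in dCasRx_NT, 17.8 and 17.3 in RBM25_NT, 16.4 and 15.4 in RBM25_MAPT, 18.0 and 17.5 in RBM25_CD46, 35.2 and 33.0 in RBFOX1N_NT, and 32.03 and 34.3 in RBFOX1N_MAPT. The effectors were separate, RBM25 lowest and RBFOX1N highest. TNFRSF10D fell by 0.56 with dCasRx-RBM25 (SE 0.10, edgeR adjusted p = 0.00541) and rose by 0.40 with RBFOX1N-dCasRx-C (SE 0.10, edgeR adjusted p = 0.0248). The fall was lost without dCasRx_NT replicate 2 (adjusted p = 0.0544), and the rise without dCasRx_NT replicate 1 (adjusted p = 0.117) or either RBFOX1N_NT library. TNFRSF10B, the signalling TRAIL receptor, was at 105 and 109 CPM in the controls and at 83.3 to 93.3 in the 10 fusion libraries, and was called in neither comparison (log2 values -0.25 and -0.27, edgeR adjusted p = 0.0863 and 0.055).

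EDA2R, a receptor for ectodysplasin A2, was at 12.1 and 13.3 CPM in dCasRx_NT, 5.43 and 5.36 in RBM25_NT, 6.14 and 6.14 in RBM25_MAPT, 5.91 and 5.36 in RBM25_CD46, 11.0 and 12.0 in RBFOX1N_NT, and 12.8 and 12.3 in RBFOX1N_MAPT. SPATA18, which acts in the clearance of damaged mitochondria, was at 23.9 and 22.8 CPM in dCasRx_NT, 11.2 and 9.95 in RBM25_NT, 11.2 and 9.52 in RBM25_MAPT, 11.5 and 11.1 in RBM25_CD46, 24.5 and 21.5 in RBFOX1N_NT, and 23.9 and 22.5 in RBFOX1N_MAPT. For both, the RBM25 libraries were below all others and the control and RBFOX1N libraries overlapped. EDA2R fell by 1.24 (SE 0.12, edgeR adjusted p = 8.37e-05) and SPATA18 by 1.15 (SE 0.11, edgeR adjusted p = 9.68e-05) with dCasRx-RBM25. Their log2 values with RBFOX1N-dCasRx-C were -0.14 and -0.02, neither called.

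AEN codes for a nuclease that takes part in apoptotic DNA breakdown. It was at 287 and 270.4 CPM in dCasRx_NT, 184 and 171 in RBM25_NT, 193 and 171 in RBM25_MAPT, 190.4 and 179 in RBM25_CD46, 330.5 and 335 in RBFOX1N_NT, and 335 and 334 in RBFOX1N_MAPT. The effectors did not overlap. The fall with dCasRx-RBM25 was 0.65 (SE 0.08, edgeR adjusted p = 0.000645), and the log2 value with RBFOX1N-dCasRx-C was 0.26 (edgeR adjusted p = 0.0651).

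PHLDA3, an inhibitor of AKT signalling, was at 86.7 and 94.9 CPM in dCasRx_NT, 69.7 and 52.0 in RBM25_NT, 60.3 and 37.7 in RBM25_MAPT, 63.6 and 51.9 in RBM25_CD46, 126 and 126 in RBFOX1N_NT, and 133 and 133 in RBFOX1N_MAPT. SUSD6 was at 22.9 and 23.3 CPM in dCasRx_NT, 19.0 and 18.2 in RBM25_NT, 19.8 and 19.1 in RBM25_MAPT, 19.8 and 18.2 in RBM25_CD46, 33.1 and 36.3 in RBFOX1N_NT, and 38.8 and 37.5 in RBFOX1N_MAPT. Both were lowest in the RBM25 libraries and highest in the RBFOX1N libraries, with no overlap, and the spread between RBM25 replicates was wide for PHLDA3. SUSD6 rose with RBFOX1N-dCasRx-C by 0.59 (SE 0.09, edgeR adjusted p = 0.00133). Between the fusions PHLDA3 differed by -1.24 (SE 0.13, edgeR adjusted p = 1.15e-05) and SUSD6 by -0.94 (SE 0.06, edgeR adjusted p = 4.14e-07), while PHLDA3 was called against the control with neither (log2 values -0.58 and 0.47, edgeR adjusted p = 0.069 and 0.105). In alternative analyses PHLDA3 was called lower with dCasRx-RBM25 in 6 of 20 and higher with RBFOX1N-dCasRx-C in 4 of 20, among them both analyses without an RBM25_MAPT library (adjusted p = 0.0062 and 0.0144 without replicate 2).

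DRAM1, the lysosomal autophagy gene, was at 5.74 and 6.70 CPM in dCasRx_NT, 4.59 and 5.19 in RBM25_NT, 5.03 and 4.17 in RBM25_MAPT, 5.31 and 5.20 in RBM25_CD46, 8.48 and 8.47 in RBFOX1N_NT, and 7.21 and 8.34 in RBFOX1N_MAPT. RPS27L, a relative of the ribosomal protein gene RPS27, was at 23.2 and 48.1 CPM in dCasRx_NT, 21.9 and 23.0 in RBM25_NT, 20.99 and 19.6 in RBM25_MAPT, 23.0 and 23.0 in RBM25_CD46, 31.5 and 33.9 in RBFOX1N_NT, and 32.2 and 27.5 in RBFOX1N_MAPT. The 2 controls of RPS27L were far apart: replicate 2 was the highest of all 12 libraries, while replicate 1 lay just above the RBM25 libraries and below the RBFOX1N libraries. Neither gene was called against the control (log2 values -0.35 and 0.45 for DRAM1, -0.67 and -0.13 for RPS27L). Without dCasRx_NT replicate 1, RPS27L was called lower with both fusions (-1.09 and -0.55, edgeR adjusted p = 0.000207 and 0.00882), and without either RBM25_MAPT library DRAM1 was called higher with RBFOX1N-dCasRx-C (adjusted p = 0.0412 in both). Between the fusions DRAM1 differed by -0.77 (SE 0.11, edgeR adjusted p = 0.000109) and RPS27L by -0.55 (SE 0.16, edgeR adjusted p = 0.0163). APAF1, the scaffold of the apoptosome, fell by 0.36 with dCasRx-RBM25 (edgeR adjusted p = 0.036), a call kept in 9 of 20 alternative analyses.

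The remaining genes of this role gave smaller values. TP53INP1, a cofactor of p53 in stress, differed by -0.29 between the fusions (SE 0.08, edgeR adjusted p = 0.015). TRIAP1, an inhibitor of apoptosome formation, PERP, a desmosome protein, and PIDD1, the scaffold of the PIDDosome, were called in no comparison, with log2 values of 0.03, 0.10 and -0.01 for dCasRx-RBM25 and -0.04, 0.02 and 0.05 for RBFOX1N-dCasRx-C.

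Of the 5 genes of DNA repair and nucleotide supply, 3 were lower with dCasRx-RBM25 than in the control (3.74% of all genes). With RBFOX1N-dCasRx-C 0 were called in either direction by edgeR (10.8% of all genes), and 1 had an unadjusted p under 0.05. When the fusions were compared, 4 were lower with dCasRx-RBM25 (18.7% of all genes). RRM2B, the p53-inducible subunit of ribonucleotide reductase, was at 48.3 and 64.5 CPM in dCasRx_NT, 31.6 and 37.4 in RBM25_NT, 27.1 and 39.5 in RBM25_MAPT, 34.2 and 40.5 in RBM25_CD46, 52.5 and 50.4 in RBFOX1N_NT, and 44.2 and 43.6 in RBFOX1N_MAPT. POLH, the translesion DNA polymerase eta, was at 78.6 and 72.5 CPM in dCasRx_NT, 59.9 and 53.3 in RBM25_NT, 60.2 and 57.7 in RBM25_MAPT, 60.5 and 55.8 in RBM25_CD46, 63.1 and 64.3 in RBFOX1N_NT, and 66.3 and 65.8 in RBFOX1N_MAPT. All RBM25 libraries were below all others for both genes, while RBFOX1N libraries overlapped with the controls only for RRM2B.

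ASCC3, a helicase subunit that acts in repair of alkylated DNA and at stalled ribosomes, was at 106 and 96.0 CPM in dCasRx_NT, 58.7 and 77.2 in RBM25_NT, 71.7 and 79.5 in RBM25_MAPT, 75.6 and 78.8 in RBM25_CD46, 99.1 and 92.8 in RBFOX1N_NT, and 92.9 and 89.7 in RBFOX1N_MAPT. It too was lowest in the RBM25 libraries, without overlap. RRM2B fell by 0.71 (SE 0.17, edgeR adjusted p = 0.0207), ASCC3 by 0.57 (SE 0.11, edgeR adjusted p = 0.00951) and POLH by 0.42 (SE 0.09, edgeR adjusted p = 0.0114) with dCasRx-RBM25. Leaving out dCasRx_NT replicate 2 ended the call for RRM2B (log2 value -0.50, adjusted p = 0.152), leaving out RBM25_NT replicate 1 ended those for RRM2B and ASCC3 (adjusted p = 0.119 for ASCC3), and leaving out dCasRx_NT replicate 1 or RBM25_NT replicate 2 ended that for POLH (highest adjusted p = 0.0843). Between the fusions POLH differed by -0.17 (edgeR adjusted p = 0.0461), a call kept in 11 of 20 alternative analyses. XPC, the damage sensor of nucleotide excision repair, was lower with dCasRx-RBM25 than in the RBFOX1N libraries by -0.26 (edgeR adjusted p = 0.0145). DDB2, the sensor of ultraviolet damage, was called in no comparison.

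Both genes of protein turnover and trafficking were lower in the RBM25 than in the RBFOX1N libraries, as were 18.7% of all genes. Neither was called against the control. BLOC1S2, a subunit of a complex that positions lysosomes, was at 52.8 and 59.1 CPM in dCasRx_NT, 46.6 and 47.8 in RBM25_NT, 44.0 and 45.4 in RBM25_MAPT, 44.4 and 45.9 in RBM25_CD46, 66.5 and 66.7 in RBFOX1N_NT, and 62.9 and 66.6 in RBFOX1N_MAPT. Its effectors were separate, and the difference between the fusions was -0.52 (SE 0.06, edgeR adjusted p = 2.47e-05). FBXO22, the substrate subunit of a ubiquitin ligase, differed by -0.24 (edgeR adjusted p = 0.0188).

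Against both control libraries, all 6 RBM25 libraries were lower for 25 of the 36 members (13.3% of all genes) and higher for 0 (14.1% of all genes). All 4 RBFOX1N libraries were higher than both controls for 13 members (24.4% of all genes) and lower for 7 (21.3% of all genes), which were FAS, TNFRSF10B, FDXR, POLH, CCNG1, CMBL and KITLG. Against dCasRx_NT replicate 1 alone, the RBM25 libraries were lower for 28 members and higher for 1, PERP (21.9% and 23.4% of all genes), and the RBFOX1N libraries higher for 14 and lower for 9 (32.8% and 31.7% of all genes). The count of members below the controls with dCasRx-RBM25 thus lay far from its background share. The 2 counts with RBFOX1N-dCasRx-C lay closer to theirs. Because the members were chosen with earlier results of these data known, their counts are no independent evidence of a direction.

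No member was called for a guide, although 2 libraries against 2 leave moderate differences undetected. With edgeR, 0 of 36 members and 0.00% of all genes were called when RBM25_MAPT, RBM25_CD46 or RBFOX1N_MAPT was set against its own nontargeting group, or for the difference between the fusions in the response to the MAPT guide. At an unadjusted p under 0.05 there were 2, 2, 3 and 2 members. Fitted log2 values of the members for a guide ran from -0.39 to 0.38, the highest being that of PLK2 with the CD46 guide (0.38, SE 0.11, edgeR adjusted p = 1). DESeq2 and limma voom called 0 members in each of the 4 comparisons, and DESeq2 called 5, 3, 0 and 1 genes over the whole table. With edgeR's quasi-likelihood test, the smallest p of the difference in response belonged to PLK3, with a log2 value of -0.61 (SE 0.17, edgeR adjusted p = 0.936). Without RBM25_MAPT replicate 1, FDXR and PHLDA3 were called lower for the MAPT guide with dCasRx-RBM25 (log2 values -0.63 and -0.69, edgeR adjusted p = 0.032 and 0.029), along with 555 genes of the whole table; the RBM25_MAPT replicates differed from each other the most, with a chi-square of 32.7 per gene against 6.07 to 19.9 in the other groups.

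Among 31 tested genes of a list of 32 regulators and partners of p53, 3 rose and 3 fell with dCasRx-RBM25 (median log2 value 0.03), against 3.88% and 3.74% of all genes. Without dCasRx_NT replicate 2, 0 rose and 2 fell. The acetyltransferase genes EP300 and CREBBP rose by 0.41 and 0.38 and TP53BP2, a p53-binding protein, by 0.36. MDM2, the ubiquitin ligase that degrades p53 and is itself a target, fell by 0.65 (SE 0.10, edgeR adjusted p = 0.00163), the phosphatase gene PPM1D, also a target, by 0.50, and the checkpoint kinase gene ATR by 0.45. With RBFOX1N-dCasRx-C 5 rose and 0 fell by edgeR (7.52% and 3.25% of all genes; 7 of the list at an unadjusted p under 0.05), or 2 and 0 without that control library, with EP300 at 0.87, the p53 inhibitor PPP1R13L at 0.79 and CREBBP at 0.62. Between the fusions 6 were higher with dCasRx-RBM25, led by the inhibitor MDM4 at 0.46 and the ribosomal protein genes RPL11 and RPL5 at 0.35 and 0.34, which have near-identical pseudogene copies, and 10 were lower, led by MDM2 at -0.59, EP300 at -0.40 and PPM1D at -0.38, against 18.0% and 18.7% of all genes.

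A second list of 32 p53 targets that are not among the 37 gave counts much like those of the members. It was drawn up with earlier results of these data known, so it is no independent evidence of a direction. It shares MDM2 and PPM1D, which both fell with dCasRx-RBM25, with the list of regulators. Of all genes, 3.74% were lower and 3.88% higher with dCasRx-RBM25. With dCasRx-RBM25, 13 of 31 tested fell and 0 rose, with a median log2 value of -0.36; without dCasRx_NT replicate 2, 12 of 32 tested fell and 0 rose. INPP5D, an inositol phosphatase gene, fell by 3.49 (SE 0.18), from 36.9 and 34.1 CPM in dCasRx_NT to 3.85 and 2.52 in RBM25_NT; CYP4F2, a fatty acid hydroxylase gene, fell by 3.07, and PTCHD4, with at most 69 counts in a library, by 3.97.

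With RBFOX1N-dCasRx-C, 7 genes of that second list rose and 2 fell, as did 7 and 2 without dCasRx_NT replicate 2. Of all genes, 7.52% rose and 3.25% fell. The stress cytokine gene GDF15 rose by 2.02 (SE 0.21), from 57.4 and 57.2 CPM in dCasRx_NT to 249.5 and 216 in RBFOX1N_NT. The proapoptotic gene BBC3 rose by 1.65. PTCHD4 fell by 3.44 and the actin gene ACTA2 by 0.97. Between the fusions, 23 were lower with dCasRx-RBM25 and 1 was higher, against 18.7% and 18.0% of all genes. Among the lower ones were GDF15 at -3.77 and ABCA12 at -3.61, the latter with at most 57 counts in a library. The only gene higher was TP53AIP1 at 2.69, with at most 27 counts in a library.

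p53 also lowers many genes of mitosis and replication indirectly, through p21 and the repressor complex DREAM. Of 20 such genes, 1 was higher with dCasRx-RBM25 (the mitotic kinase gene PLK1, by 0.31) and 4 with RBFOX1N-dCasRx-C, among them PLK1 at 0.44, the phosphatase gene CDC25C at 0.40 and CDC20, an activator of the anaphase-promoting complex, at 0.29. None were lower in these comparisons by edgeR, with 4 and 6 genes of the list at an unadjusted p under 0.05 in either direction. Of all genes 3.88% and 7.52% were higher, and without dCasRx_NT replicate 2 the counts of the list were 0 and 1. Between the fusions 1 was higher with dCasRx-RBM25 (TOP2A, a topoisomerase gene, by 0.22) and 5 were lower, led by CDC25C at -0.48, the transcription factor gene MYBL2 at -0.32 and the replication gene MCM5 at -0.31, against 18.0% and 18.7% of all genes.

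**Figure D3:**
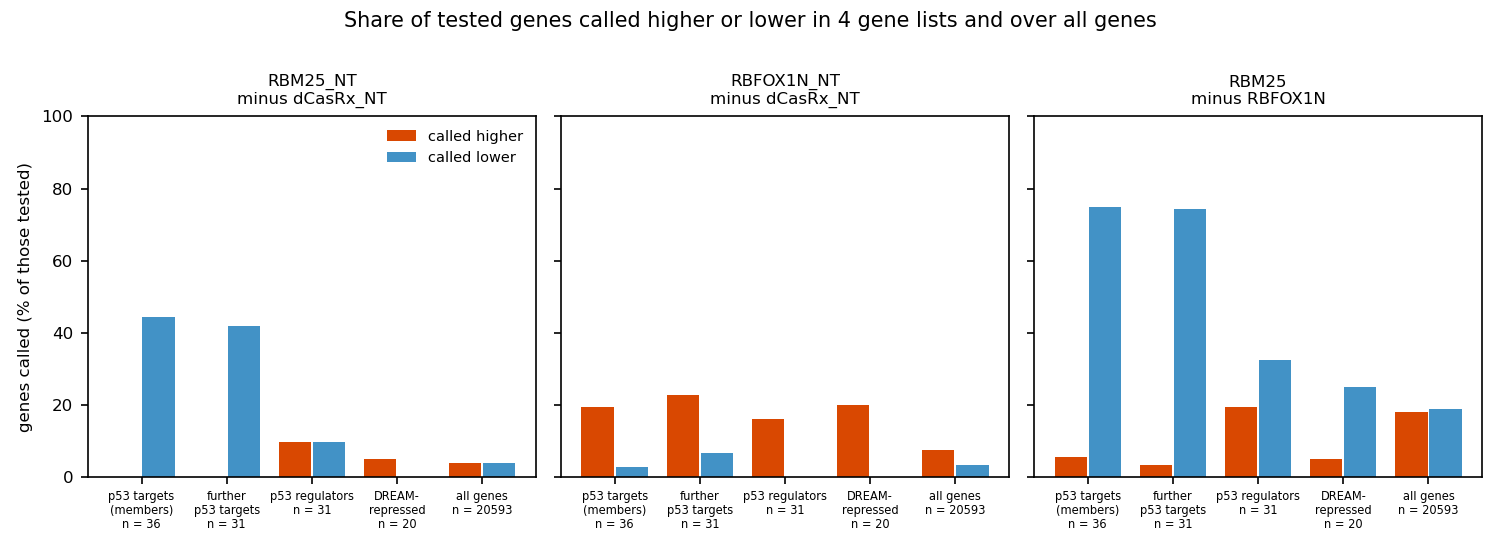
Share of tested genes called higher (orange) or lower (blue) by edgeR at an adjusted p under 0.05 in 4 gene lists and over all genes (horizontal axes, with the number tested), for the 3 comparisons of effectors (panels); the vertical axis is percent of the genes tested. The blue bars of both target lists stand far above that of all genes (3.74% and 18.7%) in the left and right panels, and in the middle panel the orange bars of all 4 lists exceed the 7.52% of all genes.

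Some members carry a recognisable p53 element close to a start of transcription. RefSeq promoter windows of 300 bases, 250 before and 50 after the start (GRCh38.p14), were at hand for 27 of the 37 members, in 39 windows. They were searched for the p53 consensus element, 2 copies of a palindromic element of 10 bases with a spacer of at most 13 bases, with the central C and G of each copy required. A match with at most 2 mismatches was found in 4 of the 39 windows, of 4 genes, and in 2.69% of 22199 windows of protein-coding genes. A match is a description of the letters and does not show binding.

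The closest match was in DDB2, 1 of the members called in no expression comparison; it had 0 mismatches, as did 0.018% of the windows, and began 6 bases after the start. It is shown with the 2 copies in capitals and the spacer base in lower case.
DDB2: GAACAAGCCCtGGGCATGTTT

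The windows of the 3 called members with 2 mismatches are printed next, with the copies in capitals, because their genes changed against the control: FAS and AEN with dCasRx-RBM25, FDXR with both fusions. They lie at chr10:88991181-88991480 on the plus strand (FAS), chr15:88621090-88621389 on the plus strand (AEN) and chr17:74872945-74873244 on the minus strand (FDXR), and the match begins 122, 34 and 31 bases before the start. FAS and AEN have no spacer and FDXR has 10 spacer bases.
FAS: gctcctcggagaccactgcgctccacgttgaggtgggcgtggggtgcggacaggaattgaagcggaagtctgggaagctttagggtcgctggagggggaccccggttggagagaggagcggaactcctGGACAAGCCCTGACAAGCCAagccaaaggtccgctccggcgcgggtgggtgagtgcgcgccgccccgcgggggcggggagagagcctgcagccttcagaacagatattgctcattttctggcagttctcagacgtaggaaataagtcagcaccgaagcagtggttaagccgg
AEN: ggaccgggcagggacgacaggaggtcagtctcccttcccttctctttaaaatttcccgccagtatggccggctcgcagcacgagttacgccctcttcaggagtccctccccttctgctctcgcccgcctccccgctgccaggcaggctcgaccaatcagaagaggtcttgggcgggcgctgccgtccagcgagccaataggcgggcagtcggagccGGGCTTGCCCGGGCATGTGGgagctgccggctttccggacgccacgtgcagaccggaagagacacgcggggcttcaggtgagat
FDXR: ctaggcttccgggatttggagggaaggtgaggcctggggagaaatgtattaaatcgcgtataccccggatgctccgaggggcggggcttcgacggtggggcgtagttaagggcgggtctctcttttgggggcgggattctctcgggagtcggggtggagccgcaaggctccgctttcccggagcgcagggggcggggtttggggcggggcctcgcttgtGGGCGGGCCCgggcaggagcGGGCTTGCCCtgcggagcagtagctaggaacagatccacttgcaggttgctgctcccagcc

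With at most 3 mismatches 8 of the 39 member windows had a match, and 12.7% of all windows; with at most 4 mismatches 18 of 39 had one, and 36.1% of all windows. Elements further from the start, such as those in introns, lie outside these windows.

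Splicing of the members was read from the deposited percent spliced in (PSI). PSI is the share of an event's reads that include the exon, retain the intron or use the splice site. Of 1269 events listed for the members, 339 events in 35 genes had enough reads in every library to be tested, and TNFRSF10A and PERP had none. An event was called at an adjusted p under 0.05 (quasi-binomial model, Benjamini-Hochberg over 100380 events) with a difference of at least 10 points. With dCasRx-RBM25 against the control, 6 member events in 6 genes were called (0.731% of all events), with RBFOX1N-dCasRx-C 15 in 5 genes (1.14% of all events), and between the fusions 28 in 10 genes, 25 of them distinct in position (2.86% of all events). Without dCasRx_NT replicate 2 these counts were 3, 12 and 28. No share over all events was computed without that library. PIDD1 held 8 of the 15 and 12 of the 28, and also 39 of the 339 tested events. Its level was called in no comparison as reported above. Without a filter on low counts it was called lower with dCasRx-RBM25 between the fusions (log2 value -0.22, edgeR adjusted p = 0.0176).

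The cassette exons behind the clearest differences are printed here with the exon in capitals and 15 bases of the neighbouring exons of the spliced transcript on each side in lower case (GENCODE release 29). They are exon 6 of 16 of PIDD1, 202 bases at chr11:802195-802396 on the minus strand, exon 13 of 16 of XPC, 170 bases at chr3:14148562-14148731 on the minus strand, and exon 31 of 32 of CYFIP2, 148 bases at chr5:157390521-157390668 on the plus strand. None has a length divisible by 3: the remainders are 1, 2 and 1.
PIDD1: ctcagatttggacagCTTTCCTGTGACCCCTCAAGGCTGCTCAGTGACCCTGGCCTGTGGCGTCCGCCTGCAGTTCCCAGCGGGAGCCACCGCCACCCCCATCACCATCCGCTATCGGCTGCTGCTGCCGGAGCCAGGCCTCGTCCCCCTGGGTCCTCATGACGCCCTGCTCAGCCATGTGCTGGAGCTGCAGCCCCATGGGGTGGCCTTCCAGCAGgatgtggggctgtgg
XPC: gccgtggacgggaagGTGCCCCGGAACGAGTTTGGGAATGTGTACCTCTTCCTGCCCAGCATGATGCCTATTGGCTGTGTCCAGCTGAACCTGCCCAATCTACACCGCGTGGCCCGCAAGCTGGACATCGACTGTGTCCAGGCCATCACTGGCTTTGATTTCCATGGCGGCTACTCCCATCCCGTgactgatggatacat
CYFIP2: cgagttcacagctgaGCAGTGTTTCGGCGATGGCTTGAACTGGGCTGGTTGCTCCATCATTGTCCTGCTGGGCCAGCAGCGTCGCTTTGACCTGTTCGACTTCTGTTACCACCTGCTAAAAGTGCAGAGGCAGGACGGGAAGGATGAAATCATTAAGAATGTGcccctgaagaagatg

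The PIDD1 exon of 202 bases was included at a PSI of 91.4% and 90.3% in dCasRx_NT, 96.2% and 94.6% in RBM25_NT, 96.4% and 93.7% in RBM25_MAPT, 92.5% and 96.2% in RBM25_CD46, 70.5% and 70.8% in RBFOX1N_NT, and 64.9% and 72.1% in RBFOX1N_MAPT, from 213 to 515 reads a library. All 4 RBFOX1N libraries were below all others. The difference from the control with RBFOX1N-dCasRx-C was -20.2 points (SE 2.6, quasi-binomial adjusted p = 0.000453), and between the fusions it was 25.7 points (SE 1.7, adjusted p = 1.28e-07). Both calls held when any 1 of the 12 libraries was left out.

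An intron of 340 bases in PIDD1, at chr11:801625-801964, was retained at a PSI of 9.7% and 7.1% in dCasRx_NT, 14.4% and 17.0% in RBM25_NT, 17.0% and 16.1% in RBM25_MAPT, 20.2% and 16.0% in RBM25_CD46, 42.9% and 42.5% in RBFOX1N_NT, and 42.2% and 39.0% in RBFOX1N_MAPT. The 3 effectors did not overlap, with the RBFOX1N libraries the highest. Retention rose by 34.3 points with RBFOX1N-dCasRx-C (SE 2.5, quasi-binomial adjusted p = 2.51e-06), and the 7.3 points with dCasRx-RBM25 were not called (adjusted p = 0.0605).

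A PIDD1 exon of 110 bases at chr11:800135-800244 was lower with both fusions. It overlaps no coding sequence of an annotated protein-coding transcript that holds exactly this exon, and other transcripts were not checked. Its PSI was 87.0% and 88.3% in dCasRx_NT, 77.2% and 70.1% in RBM25_NT, 76.1% and 73.6% in RBM25_MAPT, 62.4% and 66.4% in RBM25_CD46, 59.0% and 64.4% in RBFOX1N_NT, and 59.99% and 57.9% in RBFOX1N_MAPT. The RBM25_CD46 libraries reached the range of the RBFOX1N libraries. This exon of PIDD1 fell by 26.0 points with RBFOX1N-dCasRx-C (SE 3.1, quasi-binomial adjusted p = 0.000229) and by 14.0 points with dCasRx-RBM25 (SE 2.7, adjusted p = 0.0128), the latter lost without either control library or RBM25_NT replicate 2.

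Introns of PIDD1 went in both directions with RBFOX1N-dCasRx-C. Those of 506 and 79 bases rose by 17.9 and 16.7 points, and those of 282 and 116 bases fell by 15.1 and 16.4 points. The call for the intron of 79 bases held whichever library was left out, whereas the other 3 were lost without dCasRx_NT replicate 1, that of 506 bases also without RBFOX1N_NT replicate 2 and that of 116 bases also without dCasRx_NT replicate 2 or RBFOX1N_NT replicate 1. The exons of PIDD1 overlap those of PANO1 and RPLP2 on the opposite strand, so intron reads of the 3 genes cannot be told apart where the counting ignores strand, a setting not given in the sources used here. Exons of 17 of the 37 members overlap an exon of another gene, of which 11 overlap a protein-coding one.

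The XPC exon of 170 bases was included at a PSI of 98.1% and 97.1% in dCasRx_NT, 93.6% to 96.6% with the nontargeting or MAPT guide and dCasRx-RBM25, 92.6% and 92.7% in RBM25_CD46, 86.1% and 85.7% in RBFOX1N_NT, and 84.1% and 86.6% in RBFOX1N_MAPT. The RBFOX1N libraries were below all others, and the difference of -11.7 points from the control (SE 1.3, quasi-binomial adjusted p = 0.000122) held whichever library was left out. An alternative 5′ splice site of XPC fell by 10.0 points (adjusted p = 0.00642) and an intron of 1130 bases rose by 11.5 points (adjusted p = 0.0025) with RBFOX1N-dCasRx-C. The splice site lost its call without dCasRx_NT replicate 1 or RBFOX1N_NT replicate 1 (9.29 to 10.7 points lower over the libraries left out), and the intron without RBFOX1N_NT replicate 2. XPC exons overlap LSM3 on the opposite strand.

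The CYFIP2 exon of 148 bases was included at a PSI of 96.3% and 97.9% in dCasRx_NT, 94.5% to 97.1% in the RBM25 libraries, 89.4% and 88.6% in RBFOX1N_NT, and 80.5% and 79.9% in RBFOX1N_MAPT. The RBFOX1N libraries were the lowest, and those with the MAPT guide lower than those with the nontargeting guide. No splicing event was tested for a difference between guides. Between the fusions the difference for CYFIP2, averaged over the nontargeting and MAPT guides, was 11.2 points (SE 1.0, quasi-binomial adjusted p = 2.17e-06). The larger part of it came from the libraries with the MAPT guide. The -8.0 points of RBFOX1N_NT against the control did not reach 10 points.

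Between the fusions, 4 introns of FDXR were retained at a higher level with dCasRx-RBM25. Its intron of 80 bases had a PSI of 11.1% and 6.9% in dCasRx_NT, 17.4% and 15.4% in RBM25_NT, 19.99% and 17.8% in RBM25_MAPT, 16.7% and 12.5% in RBM25_CD46, 6.2% and 7.5% in RBFOX1N_NT, and 7.0% and 4.3% in RBFOX1N_MAPT. All RBM25 libraries were above all others. The difference between the fusions was 11.4 points (SE 1.7, quasi-binomial adjusted p = 0.000319), and FDXR introns of 128, 649 and 132 bases differed by 10.7, 10.6 and 10.2 points. The call for the intron of 80 bases held in 12 of 12 analyses that left out a library, and those for the other 3 in 8 to 10.

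An exon of TP53I3 of 197 bases was at a PSI of 84.2% and 83.4% in dCasRx_NT and 69.9% and 68.1% in RBFOX1N_NT, a difference of -14.8 points (SE 2.8, quasi-binomial adjusted p = 0.00909) that was lost without either control library or RBFOX1N_NT replicate 2. Retention of a SESN1 intron of 912 bases was 5.5% and 3.7% in the controls and 11.2% to 20.4% in the 10 fusion libraries; the call with dCasRx-RBM25 (10.4 points, adjusted p = 0.0434) held in 1 of 12 analyses that left out a library, that with RBFOX1N-dCasRx-C (11.9 points, adjusted p = 0.0119) in 10. A DDB2 exon of 46 bases rose by 10.2 and 11.1 points with the 2 fusions, and both calls were lost without dCasRx_NT replicate 2, the former also without RBM25_NT replicate 1 and the latter also without RBFOX1N_NT replicate 2. The largest value, 44.9 points for a TP53INP1 exon of 38 bases with dCasRx-RBM25 (SE 10.8, adjusted p = 0.0408), rested on 35 to 70 reads a library and was lost in 5 of 12 such analyses.

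An alternative 5′ splice site of AEN was used at a PSI of 61.6% and 74.3% in dCasRx_NT, 85.8% and 79.2% in RBM25_NT, 79.8% and 79.2% in RBM25_MAPT, 75.6% and 76.5% in RBM25_CD46, 74.9% and 68.9% in RBFOX1N_NT, and 62.3% and 64.8% in RBFOX1N_MAPT. The RBM25 libraries were above all others, and the 2 control libraries were far apart. The rise was 14.5 points against the control (SE 3.4, quasi-binomial adjusted p = 0.0367), a call lost without dCasRx_NT replicate 1 or RBM25_NT replicate 1 with values from 8.19 to 20.9 points over the libraries left out, and 13.3 points against RBFOX1N-dCasRx-C (SE 2.3, adjusted p = 0.00122), which held whichever library was left out.

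**Figure D4:**
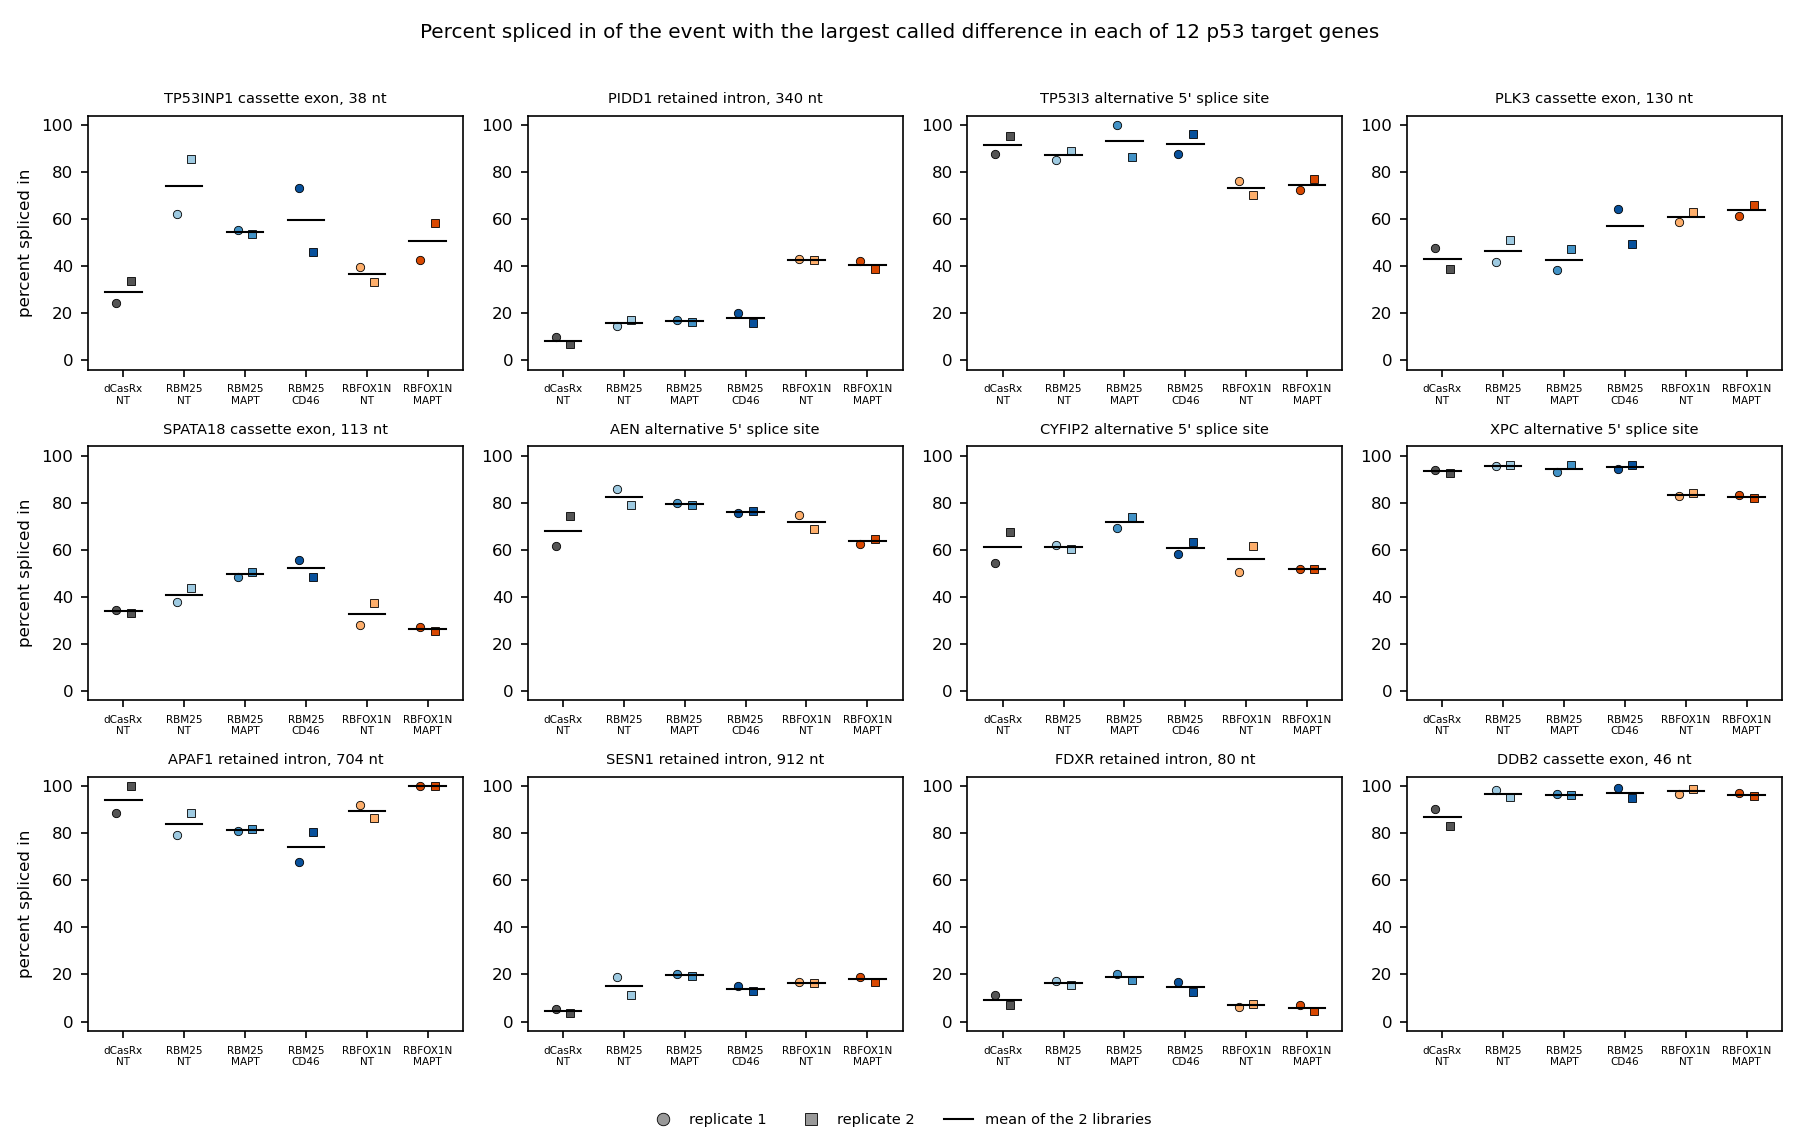
Percent spliced in (vertical axes, percent) of the event with the largest called difference in each of 12 p53 target genes, by library and group (horizontal axes); circles are replicate 1, squares replicate 2 and lines the mean of the 2 libraries. The PIDD1 intron is retained at 39.0% to 42.9% in the RBFOX1N libraries against 7.1% to 20.2% in the others, and the FDXR intron is highest in the RBM25 libraries, at 12.5% to 19.99%.

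FAS is a standard example of regulated splicing, since skipping of its exon 6 removes the membrane-spanning part of the receptor. The tested cassette exon of FAS with the most reads, 109 bases at chr10:89008889-89008997, was at a PSI of 91.8% and 83.0% in dCasRx_NT, 89.6% and 97.5% in RBM25_NT, 91.2% and 90.1% in RBM25_MAPT, 90.8% and 81.8% in RBM25_CD46, 89.4% and 77.4% in RBFOX1N_NT, and 81.2% and 84.5% in RBFOX1N_MAPT. The control range overlapped with the RBM25 and with the RBFOX1N libraries, and at 65 to 117 reads a library no comparison was called (quasi-binomial adjusted p = 0.542, 0.734 and 0.0954). For RBFOX1N_NT replicate 2 the 95% Wilson interval, which covers counting error only, was 68.6% to 84.1%.

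FAS exon 6 itself, chosen after its values were seen, is 63 bases long at chr10:89010753-89010815 and is printed with the exon in capitals. Its PSI was 59.4% and 75.3% in dCasRx_NT, 77.5% and 72.3% in RBM25_NT, 95.7% and 75.9% in RBM25_MAPT, 85.1% and 85.7% in RBM25_CD46, 81.1% and 68.7% in RBFOX1N_NT, and 77.9% and 63.6% in RBFOX1N_MAPT, from 44 to 87 reads. The replicates of a group differed by as much as the groups, and no difference was detectable at this depth (quasi-binomial adjusted p = 0.741, 0.692 and 0.471).
FAS: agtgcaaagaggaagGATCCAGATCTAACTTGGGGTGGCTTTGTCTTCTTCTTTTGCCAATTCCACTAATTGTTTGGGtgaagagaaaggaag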

How the data were processed

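Gene counts were deposited by the authors as whole-number read counts per Ensembl gene for 12 HEK293T libraries. The submitters' processing notes name STAR 2.7.10, edgeR and hg38; the annotation and strand setting of the counting, and the version of the splicing tool, were not given in the sources used here. Percent spliced in and its supporting reads were deposited by the authors per event, and the deposited percent values lay within 0.05 points of those computed from the reads for 1280390 of 1280412 values. The kit was directional.

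Counts were scaled by TMM, filtered by edgeR's filterByExpr and fitted with 1 mean for each of the 6 groups (edgeR 4.0.16 in R 4.3.3, quasi-likelihood test, 6 residual degrees of freedom, common biological coefficient of variation 0.0977), with Benjamini-Hochberg adjustment over 20593 genes. A standard error is the absolute log2 fold change divided by the square root of F. Library sizes of 32487927 to 53985468 counts set the precision, and with 2 libraries against 2 the smallest exact permutation p is 0.333, so single values were tested only within fits across all features. Splicing events needed 20 reads in each library and 24 reads of the less used form in all, and were fitted with a quasi-binomial model whose dispersion was moderated with 9.91 prior degrees of freedom (numpy 2.4.6, scipy 1.17.1). Both scripts were tested on simulated data.

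The members and lists were chosen with earlier results of these data known. By the rule for named genes, values in each library are given for CDKN1A and for the members called in at least 1 of the 3 comparisons of effectors with the largest absolute log2 fold change in any of them, up to 20, and the others by range and counts; of the regulators and further targets, the 3 highest and 3 lowest called genes in each comparison are named, except for some genes that are not reported here. Splicing events named are called ones and the tested FAS cassette exon with the most reads; exon 6 of FAS was added after its values were seen. Genes named from the DREAM list were chosen after their values were seen. Alternatives were RLE scaling, no or a stricter filter on low counts, DESeq2 1.42.0, limma 3.58.1 voom, a replicate block, leaving out RBM25, fitting only the groups compared, other read minimums, no minimum difference, limma on logit values, and leaving out each library. Promoters are from RefSeq and exons from GENCODE release 29.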

Additional observations from a re-analysis of the deposited data

How the results depend on the processing

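Of 820 values that the 41 called results of named members took under alternatives, 780 kept direction and call, 40 lost the call and 0 reversed. The 19 results of named members that were not called gained a call in 27 of 380 values: with dCasRx-RBM25 PHLDA3 and SUSD6 in 6 each and RPS27L in 2, and with RBFOX1N-dCasRx-C PHLDA3 in 4, AEN and BLOC1S2 in 3 each, DRAM1 in 2 and RPS27L in 1. The count of members lower with RBFOX1N-dCasRx-C, 1, became 2 with RLE scaling, a stricter filter, DESeq2, the replicate block or RBM25 left out, TNFRSF10B being the added gene each time. The differences between replicates correlated weakly from group to group (-0.0979 to 0.166 in 15 pairs, 2 over 0.1). The highest correlations were those between RBM25 groups, at 0.166, 0.105 and 0.0996. These values do not settle whether replicate numbers pair libraries within the RBM25 groups. With the replicate block as a term, 19 members were lower with dCasRx-RBM25, and 9 higher and 2 lower with RBFOX1N-dCasRx-C. Between the fusions 27 were then lower and 2 higher. Over all 20593 genes, 1966, 2614 and 8010 were called with the block in these comparisons, against 1570, 2217 and 7553 without it. The number of genes called over the whole table also moved with the library left out. It was lowest for dCasRx-RBM25 without RBM25_NT replicate 1, and for RBFOX1N-dCasRx-C without RBFOX1N_NT replicate 2. For both fusions against the control it was highest without either RBM25_MAPT library. The member counts that follow carry that shift and are not results about the members alone. Leaving out 1 library gave 11 to 20 members lower and 0 to 0 higher with dCasRx-RBM25, 4 to 11 higher and 0 to 3 lower with RBFOX1N-dCasRx-C, and 22 to 28 lower and 1 to 3 higher between the fusions. The 4 came without dCasRx_NT replicate 1 or either RBFOX1N_NT library, the 11 without either RBM25_MAPT library, the 3 without dCasRx_NT replicate 1, and the 0 lower without RBFOX1N_NT replicate 2. The 2 members higher between the fusions became 1 without RBM25_NT replicate 1, RBFOX1N_NT replicate 2 or either RBFOX1N_MAPT library. For the MAPT guide with dCasRx-RBM25 the range was 0 to 2, and 0 to 0 for the other guide comparisons. Without a filter on low counts, 67 genes of the whole table were called for that MAPT comparison, 13 for the CD46 guide and 18 for the difference in response.

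Calls of splicing events in members depended more on the choices. The counts that follow are of the 339 tested member events only. Shares over all events were not computed under these settings, so these counts have no background beside them. Without a minimum difference 17, 41 and 80 were called for dCasRx-RBM25, RBFOX1N-dCasRx-C and between them. With limma on logit values there were 0, 5 and 9 calls, and with the replicate block in that fit 0, 1 and 9; the counts at an unadjusted p under 0.05 in the quasi-binomial fit were 79, 99 and 134. Leaving out 1 library gave 2 to 5, 8 to 16 and 19 to 29: for dCasRx-RBM25 2 without RBM25_NT replicate 1 and 3 without either dCasRx_NT library, RBM25_NT replicate 2 or either RBFOX1N_NT library, and for RBFOX1N-dCasRx-C 9 without dCasRx_NT replicate 1 and 8 without RBFOX1N_NT replicate 2. The causes were not tested. Depth limits events such as the FAS exons, with at most 117 reads a library, and 2 replicates a group limit all tests.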
